A study of Mus musculus with 2 samples.

Results

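Heat shock proteins and cytosolic chaperonins were described in a poly(A) RNA library of 4T1 cells, an established tumour cell line from a BALB/c mouse mammary carcinoma. The members are 40 genes picked by symbol for what they are known to do, and all 40 were in the deposited table of 54532 genes. The labels give 2 samples, 1 wild type and 1 knockout, and the series' design text names Cd28, a costimulatory receptor best known from T cells, as the gene knocked out. No treatment is named, and how the gene was knocked out, or whether the cells were 1 clone, is not given in the sources used here. The knockout library was analysed. The other column of counts is headed by a name found in neither sample's labels, so it was not used, and no difference between knockout and wild type was computed. Every value is therefore a level in 1 library of 15565990 counted reads with no replicate, and the intervals cover counting error only. In bulk RNA, fewer cells with a transcript and less of it per cell cannot be told apart. Cd28 itself had 8 reads, and with no wild-type level its count does not check the label. All 7 epithelial markers looked at had at least 10 reads, Krt18 with 16451 and Epcam with 645, whereas 1 of 23 markers of T and NK, B, myeloid, fibroblast and endothelial cells did (Col1a1, with 59), and 17 of the 23 had 0.

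Heat shock proteins are molecular chaperones: they bind unfolded or partly folded proteins and help them to fold, to refold after stress or to be handed on for degradation. HSP70 proteins act with J-domain proteins, which deliver clients and trigger ATP hydrolysis, and with nucleotide exchange factors, which release the client. HSP90 receives many kinases and hormone receptors from HSP70, and the chaperonins enclose a single chain in a barrel, CCT (also called TRiC) in the cytosol and HSP60 in mitochondria. Heat shock factors bind inverted repeats of a short unit, the heat shock element, in the promoters of many of these genes. Tumour cells are widely described as relying on this machinery.

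To compare genes with each other, the count of each gene was taken per base of its deposited length, and these values were scaled to sum to 1000000 over the library (TPM). Detection was set at 10 reads, and percentiles give the share of the 11497 detected protein-coding genes that had a lower TPM. Of the 40 members 39 were detected, against 52.2% of all 22046 protein-coding genes, and Hspa1a was the exception. The TPM of 34 members exceeded 24.4 TPM, the median over detected protein-coding genes (26.1% of all protein-coding genes did), and 21 lay in the top 10%, above 114 TPM (5.22% of all). The 6 members at or below the median were Hsf1, Dnajb4, Cryab, Hsf2, Hspb1 and Hspa1a. The median over the members was 138 TPM. Together the members held 257668 reads, 1.66% of the library, and 55.02% of these fell on Hsp90ab1, Hspa8 and Hsp90aa1.

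**Figure D1:**
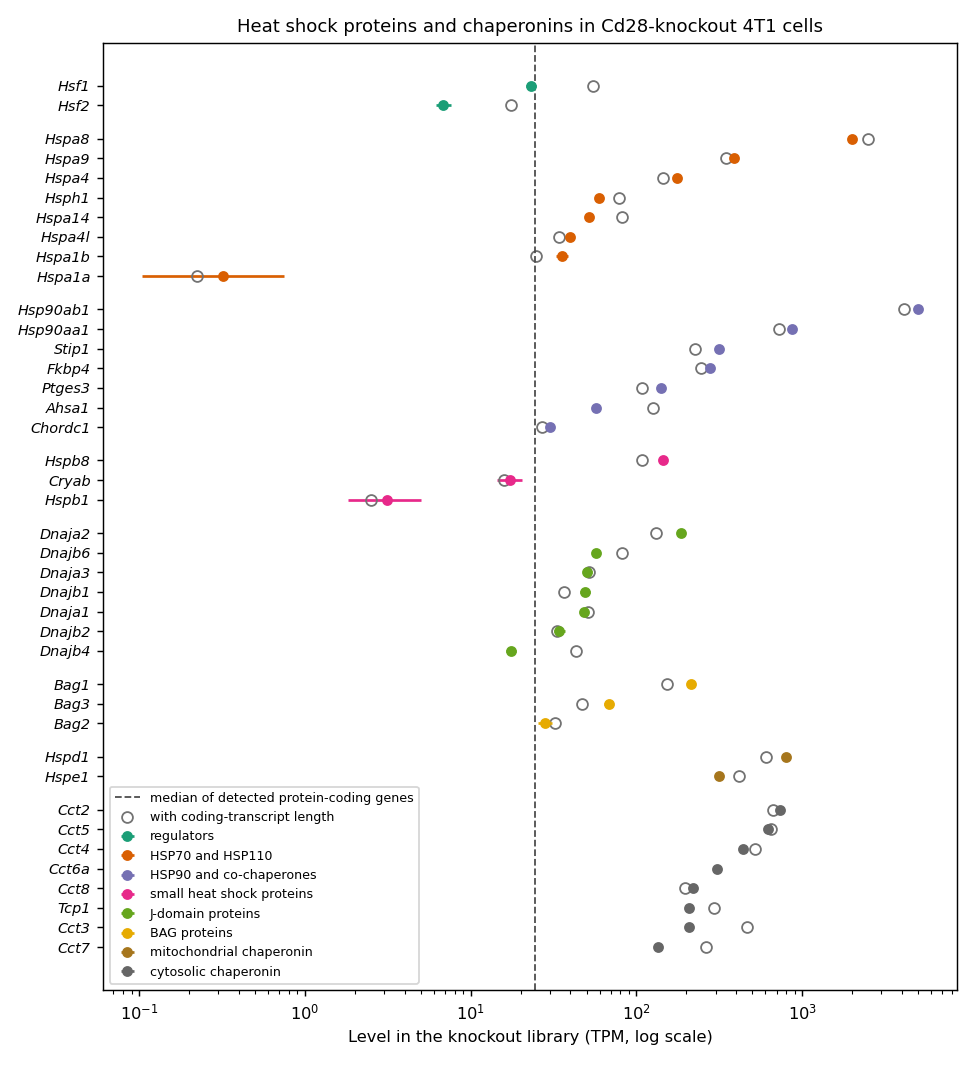
Level of each member in the knockout library (TPM, log axis), ordered within its class. Filled points use the deposited gene length with exact Poisson 95% intervals, open points the length of the coding transcript; Hsp90ab1 stands highest at 5003 TPM and Hspa1a lowest at 0.321.

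With the deposited length both regulators lay below the median of the detected genes. Hsf1, the main transcription factor of the heat shock response, had 865 reads, which is 23.2 TPM (95% interval 21.7 to 24.8, percentile 48.2). Hsf2, a related factor that can pair with it, had 345 reads and 6.85 TPM (6.14 to 7.61, percentile 20.1). Hsf1 was thus 3.39 times higher than Hsf2 per length (2.99 to 3.85). Both levels depend strongly on the length used: the deposited lengths are 3.38 and 3.69 times those of the coding transcripts. With the latter Hsf1 had 54.4 TPM, which is above the median (percentile 73.1) and above Bag3 and Dnajb1. It was then close to Dnaja1, at 51.3 TPM. Hsf2 had 17.5 TPM with the coding transcript, still below the median (percentile 38.2). Other members of the factor family had 2 reads (Hsf4), 1 (Hsf5) or 0 (Hsf3, Hsfy2). Hsbp1, a small protein reported to bind and restrain HSF1, had 1168 reads and 119.7 TPM.

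The sequence that heat shock factors recognise was looked for in promoter windows of RefSeq (build GRCm38.p6), from 250 bases before to 50 after each transcription start. Windows were found for 33 of the 40 members; Cct4, Cryab, Hsf1, Hsp90aa1, Hsp90ab1, Hspa8 and Hspa9 had none in the table. The element was taken as GAA, any 2 bases, TTC, any 2 bases and GAA, or the reverse complement of this, which begins and ends with TTC. Searched on both strands, so that neighbouring matches may overlap, it occurred in the windows of 5 members (15.2% of 33): Hspd1, Hspe1, Hsph1, Dnajb6 and Chordc1. It occurred in those of 0.662% of all 27025 genes with a window, and in 0.518% of 9075 detected protein-coding genes with one. Hspd1 and Hspe1 share the same element, so the 5 members hold elements at 4 places. With 1 of the 9 fixed letters free to differ, 16 members (48.5%) held a match, against 8.15% of all genes. These 16 were the 5 above with Hspa1a, Hspa1b, Hspb1, Fkbp4, Ptges3, Ahsa1, Dnaja1, Dnajb4, Cct2, Cct5 and Cct6a, and the matches lay between positions -156 and 50, counted with the start as 1. Of all BAG gene windows (3 members) 0 held a match of either kind, too few members to tell apart from the 8.15% of all genes. Bag3 held 2 of the 3 units, at positions 43 to 50, where its window ends. A match is a run of letters and does not show that a factor is bound. The windows of the genes with exact matches are shown around them, 5' to 3' on the gene's strand, with every base of an exact match in capitals. For Hspd1, Hsph1 and Dnajb6, which have more than 1 RefSeq start, positions refer to the start that lies first on the chromosome.
Hspd1 to Hspe1, the 215 bases between the first Hspd1 start and the Hspe1 start, chr1:55087933-55088147, Hspe1 strand (+): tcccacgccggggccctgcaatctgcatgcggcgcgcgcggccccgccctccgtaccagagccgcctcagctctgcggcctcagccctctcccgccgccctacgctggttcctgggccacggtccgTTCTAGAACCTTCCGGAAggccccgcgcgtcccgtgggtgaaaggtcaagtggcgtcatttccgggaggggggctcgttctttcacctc
Dnajb6, 75 bases before the start, chr5:29735823-29735897 (+): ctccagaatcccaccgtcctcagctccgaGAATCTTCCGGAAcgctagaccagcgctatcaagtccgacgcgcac
Chordc1, positions -30 to 30, chr9:18292237-18292296 (+): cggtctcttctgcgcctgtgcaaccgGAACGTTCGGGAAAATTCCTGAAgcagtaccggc
Hsph1, positions -30 to 30, chr5:149636286-149636345 (-): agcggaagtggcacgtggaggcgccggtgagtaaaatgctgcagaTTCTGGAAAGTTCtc
In Chordc1 the match ran on through 3 overlapping copies across the start, and between Hspd1 and Hspe1 through 2. The 5 members with an exact match had a median of 59.1 TPM and ranged from 30.004 for Chordc1 to 801 for Hspd1, and the 28 without one had a median of 102 and ranged from 0.321 to 735. Levels of members with and without the element thus overlapped. The 7 members without a window, among them the 3 highest (Hsp90ab1, Hspa8 and Hsp90aa1), are in neither group. Over detected protein-coding genes with a window the median was 35.1 TPM for the 47 with an exact match and 24.8 for the 9028 without. The letters TATAA, on either strand, were in the windows of 6 members (18.2%, against 28.0% of all genes and 15.4% of detected protein-coding genes), and CCAAT in those of 15 (45.5%, against 41.1% and 43.5%).

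**Figure D2:**
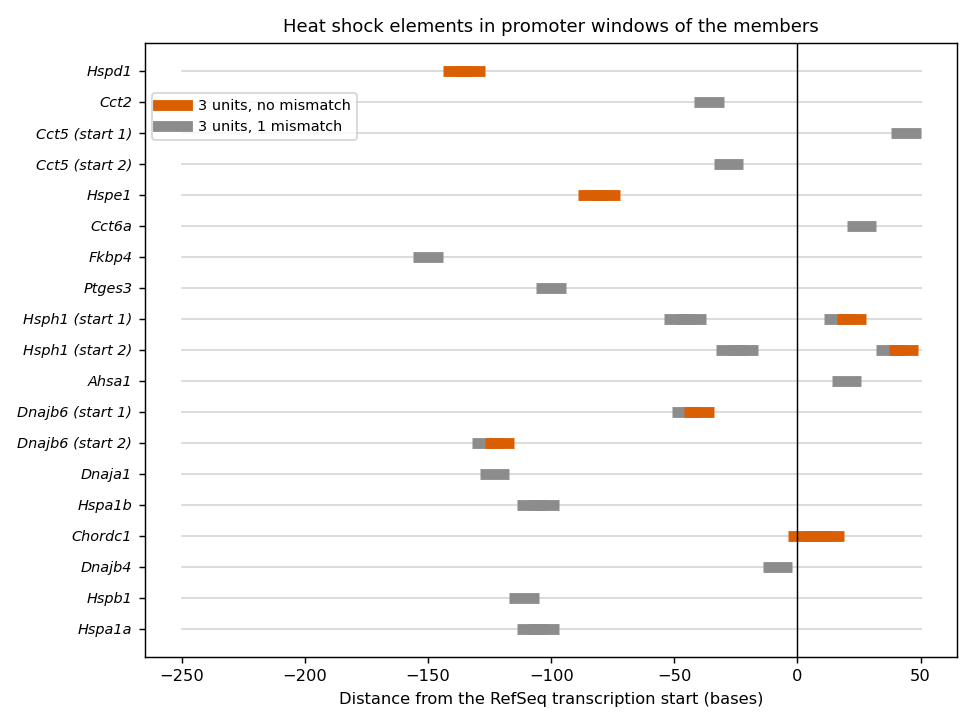
Position of heat shock elements, in bases from the RefSeq transcription start, in each promoter window with a match. Orange marks exact 3-unit matches and grey those with 1 mismatch; the 16 genes shown hold matches between -156 and 50.

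HSP70 chaperones ranged from 45110 reads to 5. Hspa8, the constitutive cytosolic HSP70 (HSC70), had 1999.6 TPM (1981 to 2018) and stood at percentile 99.6. Hspa9, the mitochondrial HSP70 (mortalin), followed with 7975 reads and 387 TPM (378 to 395). Hspa8 was 5.17 times higher than Hspa9 per length (5.05 to 5.30), and 7.20 times with coding transcripts. The HSP110 proteins, large relatives that serve as exchange factors of HSP70, were intermediate. Hspa4 had 5060 reads and 175 TPM (169.7 to 179), Hsph1 2254 reads and 59.1 TPM, and Hspa4l 2448 reads and 39.6 TPM. Hspa14, an HSP70 relative bound to ribosomes, had 1104 reads and 51.9 TPM. With coding transcripts Hspa14 had 81.3 TPM and Hsph1 78.4, so the 2 lay close and were no longer separated.

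The stress-inducible HSP70 genes were the low end of the class. Hspa1b (ENSMUSG00000090877, chromosome 17, start 34956436, minus strand, 1 exon, mm10) had 525 reads, 35.7 TPM (32.7 to 38.9), at percentile 62.6. Its neighbour Hspa1a (ENSMUSG00000091971, start 34969190, minus strand, 1 exon), 9951 bases further on, had 5 reads and 0.321 TPM (0.104 to 0.75). Hspa8 was 56 times higher than Hspa1b per length (51.4 to 61.1), and 101 times with coding transcripts. Hspa1b then had 24.8 TPM and lay below the median computed with the same lengths (percentile 48.5). Its own length was the same either way, so its TPM fell only because the library was scaled anew. The Hspa1a and Hspa1b promoter windows differed at 4 of 300 bases (98.7% identical), with 1 difference within the 150 bases before the start. Those 150 bases are shown because near-identical promoters stand over a read ratio of 105. Per length the ratio was 111, with a wide interval (47.3 to 344) because Hspa1a had 5 reads. Capitals mark the 2 overlapping elements with 1 mismatch.
Hspa1a, chr17:34972157-34972306 (-): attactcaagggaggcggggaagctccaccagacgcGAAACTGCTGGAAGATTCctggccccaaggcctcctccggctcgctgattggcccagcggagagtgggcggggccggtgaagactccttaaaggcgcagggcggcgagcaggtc
Hspa1b, chr17:34959239-34959388 (-): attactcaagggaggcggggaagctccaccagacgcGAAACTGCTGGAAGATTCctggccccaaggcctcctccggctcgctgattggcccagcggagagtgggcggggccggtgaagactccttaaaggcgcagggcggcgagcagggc
The transcripts also share sequence, and reads that match both genes may have been dropped or assigned to either. Of the 100-base stretches of the Hspa1a transcript 43.5% occurred in no other annotated gene, and of those of Hspa1b 50.07%. All reads of the gene divided by the number of these own stretches came to 0.401 per 100 for Hspa1a and 38.8 for Hspa1b; where in the transcripts the reads lay is not known from counts per gene. On the other strand, 19.01% of the Hspa1a exon lies under Gm20481, which had 0 reads and is among the genes that share stretches with it. The part of shared sequence in the difference was not tested. Whether BALB/c sequence differs from the reference at these genes was not examined, and its part in the counts was not tested.

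HSP90 had the highest level of the members. Hsp90ab1, the constitutive cytosolic form (ENSMUSG00000023944, chromosome 17, start 45567775, 9 merged exons), had 78695 reads and 5003 TPM (4968 to 5038, percentile 99.9). It alone held 30.5% of all member reads. Hsp90aa1, the more stress-responsive form (chromosome 12, start 110690605), had 17971 reads and 872 TPM (859 to 884), which made Hsp90ab1 5.74 times higher (5.65 to 5.83). This ratio hardly depended on length (5.70 with the coding transcripts). Of the Hsp90aa1 stretches 52.5% occurred in no other gene, against 100% for Hsp90ab1; most of the shared part matched Gm12346, a processed pseudogene that had 263 reads.

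The co-chaperones of HSP90 lay below it. Stip1 (HOP), which bridges HSP70 and HSP90, had 3580 reads and 314 TPM (304 to 325). Fkbp4 (FKBP52), a peptidyl-prolyl isomerase of steroid receptor complexes, had 4083 reads and 279 TPM (270.04 to 287). Ptges3 (p23), which stabilises the closed HSP90 dimer, had 1627 reads and 139.9 TPM. Ahsa1, an activator of its ATPase, had 1315 reads and 57.3 TPM, and Chordc1 (morgana) 1180 reads and 30.004 TPM. Stip1 and Fkbp4 were separated from Ptges3, Ahsa1 and Chordc1 by more than their counting intervals. With coding transcripts the order of the first 2 turned, Fkbp4 having 244 TPM and Stip1 225. Length mattered most for Ahsa1, whose deposited length is 3.18 times that of its coding transcript: with the latter it had 126 TPM, above Ptges3 at 108. Adding the 410 reads of the processed pseudogene Ptges3-ps would raise Ptges3 by 25.2%, enough to turn this order back.

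Among the J-domain partners of HSP70, Dnaja2 was highest, with 2904 reads and 186 TPM (179.4 to 193). It exceeded Dnaja1, a member of the same type, 3.86 times per length (3.65 to 4.08) and 2.56 times with coding transcripts. The interval leaves out shared sequence: 76.0% of the 100-base stretches of Dnaja1 occurred in no other gene, against 100% for Dnaja2. On the other strand, 7.05% of the Dnaja1 exons lie under Smu1, which had 1253 reads, and the part of this overlap was not tested. Dnajb6, a suppressor of aggregation, had 1808 reads and 56.9 TPM, Dnaja3, a mitochondrial form, 1037 reads and 50.5, Dnajb1 (HSP40), the main stress-inducible partner, 823 reads and 49, and Dnaja1 2182 reads and 48.2. The intervals of Dnaja3, Dnajb1 and Dnaja1 overlap, whereas that of Dnajb6 (54.3 to 59.5) lies above all 3. Dnajb2, a neuronal co-chaperone that binds ubiquitin, had 765 reads and 34.3 TPM. Dnajb4 was lowest, with 802 reads and 17.4 TPM, below the median of the detected genes, but had 43.04 TPM with the coding transcript, the deposited length being 3.56 times that of this transcript.

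BAG proteins release clients from HSP70. Bag1, which links HSP70 to the proteasome, had 1506 reads and 213 TPM (202 to 224). Bag3, which directs clients to autophagy together with HSPB8, had 915 reads and 68.1 TPM, and Bag2, an inhibitor of the ubiquitin ligase CHIP, 451 reads and 28.1 TPM. Bag1 was 3.13 times higher than Bag3 (2.88 to 3.40) and 7.57 times higher than Bag2 (6.81 to 8.43). With coding transcripts the ratios were 3.26 and 4.80.

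The small heat shock proteins, which hold unfolding proteins without using ATP, were uneven. Hspb8 had 1479 reads and 145 TPM (137 to 152, percentile 92.9). Cryab, alpha-B crystallin, had 134 reads and 17.3 TPM, and Hspb1, known as HSP25 in the mouse and HSP27 in man, had 17 reads and 3.14 TPM (1.83 to 5.03, percentile 11.6). Hspb8 was thus 46 times higher than Hspb1 per length (28.6 to 79.2). The Hspb1 count is the least certain of the 3, because 43.7% of its 100-base stretches occurred in no other gene. The remaining 56.3% were found in the processed pseudogene Hsp25-ps1, and Gm9817, annotated as coding, shared part of them; both had 0 reads. All its reads divided by its own stretches came to 4.84 per 100. Reads that fit several places, and their part in the low count, were not tested.

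The mitochondrial chaperonin genes stand head to head on chromosome 1, and both were in the top 10%. Hspd1 (HSP60; chromosome 1, 55077835 to 55088243, minus strand, 12 merged exons) had 11095 reads and 801 TPM (786 to 816). Hspe1 (HSP10; 55088132 to 55091307, plus strand, 4 merged exons), which encodes the lid of the barrel, had 2437 reads and 315 TPM (303 to 328). Hspd1 was 2.54 times higher per length (2.43 to 2.65), and 1.45 times with coding transcripts, the deposited length of Hspe1 being 1.90 times that of its transcript. Their first exons overlap by 112 bases on opposite strands, 7.60% of the Hspe1 exons. The use of strand in the counting is not given in the sources used here, so reads there cannot be assigned with certainty. These exons are those of GENCODE. Of the RefSeq starts of Hspd1, 1 (55088243) also lies past the Hspe1 start, and the other lies before it.

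All 8 genes of the cytosolic chaperonin CCT, which folds actin and tubulin, lay in the top 10%. The ring holds each subunit in equal number, and their levels are set side by side for this reason. Cct2 had 9859 reads and 735 TPM (721 to 749.8), Cct5 9057 reads and 624 TPM, Cct4 9732 reads and 442 TPM, and Cct6a 5784 reads and 305 TPM. Cct8 had 3547 reads and 219 TPM, Tcp1 (subunit alpha) 5469 reads and 207 TPM, Cct3 6898 reads and 206 TPM, and Cct7 4825 reads and 136 TPM (132 to 139.6). With this deposited length Tcp1 and Cct3 could not be separated, whereas Cct2, Cct5, Cct4 and Cct6a differed from each other by more than counting error. The coefficient of variation of the TPM was 61.1% and the highest level was 5.42 times the lowest.

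Much of this spread went with the gene length used. Deposited lengths ran from 2557 bases for Cct2 to 6778 for Cct7, while the coding parts of the 7 subunits with a coding transcript ran from 1605 to 1668 bases. With the length of the coding transcript the coefficient of variation over these 7 was 43.2% (64.3% over the same 7 with the deposited length), with Cct3 at 461 TPM in place of 206 and Cct7 at 261 in place of 136. Per 1000 coding bases it was 37%, and the subunits ranged from 2158 reads for Cct8 to 6143 for Cct2, a ratio of 2.85. Cct2, Cct4 and Cct5 were the highest by all 3 measures. The distances among them, and between Tcp1 and Cct3, depended on the length. With the coding transcript Cct2 and Cct5 lay close, at 665 and 646 TPM, and Tcp1, at 296, was well below Cct3. Per 1000 coding bases Cct4, with 6019 reads, lay close to Cct2. Cct6a is annotated as a processed transcript without a coding part, in the deposited table and in GENCODE vM21, and has no value by the other measures. Tcp1 shares 20.2% of its 100-base stretches with Acat3, which overlaps it on the other strand and had 72 reads. It also shares 190 stretches with Acat2, which had 696 reads. Mrpl18, with 522 reads, lies over 2.80% of the Tcp1 exons on the other strand. Likewise 12.5% of the Cct6a exons lie under Psph, which had 992 reads. The part of these overlaps in the counts was not tested.

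**Figure D3:**
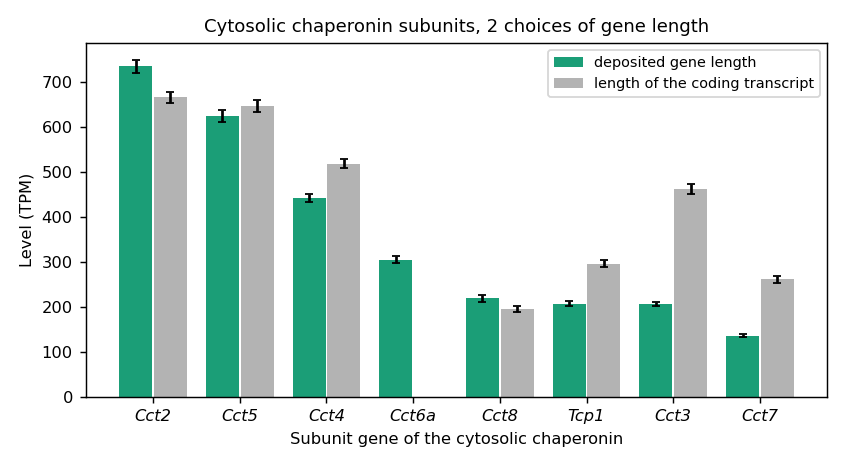
Level of each CCT subunit gene (TPM) with the deposited gene length (green) and the length of the coding transcript (grey, not available for Cct6a); bars start at 0 and error bars are 95% counting intervals. Cct3 and Cct7 rise most with the coding transcript, and Cct2 is highest either way, though close to Cct5 with the coding transcript.

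In the order of all 40 levels with the deposited length, 17 of the 39 neighbouring pairs had overlapping counting intervals. The first 9 genes, from Hsp90ab1 through Hspa8, Hsp90aa1, Hspd1, Cct2, Cct5, Cct4 and Hspa9 to Hspe1, were each separated from the next, up to Hspe1, which was not separated from Stip1. The longest run of unseparated neighbours went from Hsph1 through Ahsa1, Dnajb6, Hspa14, Dnaja3 and Dnajb1 to Dnaja1, between 59.1 and 48.2 TPM. This order is that of 1 library, and the spread between cultures is unknown.

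Shared sequence set the certainty of the counts unevenly. Of the 39 members with a coding transcript, 21 had all of their 100-base stretches to themselves and 14 had under 90%. Hspa8 had the smallest share, 36.6%, with the largest overlap to the processed pseudogene Gm15459 (58.5% of its stretches), which had 0 reads. Processed pseudogenes are intronless copies of an mRNA. At least 1 stretch of 50 bases was shared with a member in 74 of them, of which 43 had 0 reads and 11 had 10 or more. The 14 pseudogenes with at least 50% of their stretches in a member held 1601 reads. Adding these would raise Ptges3 by 25.2%, Dnajb6 by 5.31%, Hspd1 by 4.79%, Dnaja1 by 4.67%, Hsp90aa1 by 1.51% and Hspa8 by 0.419%.

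**Figure D4:**
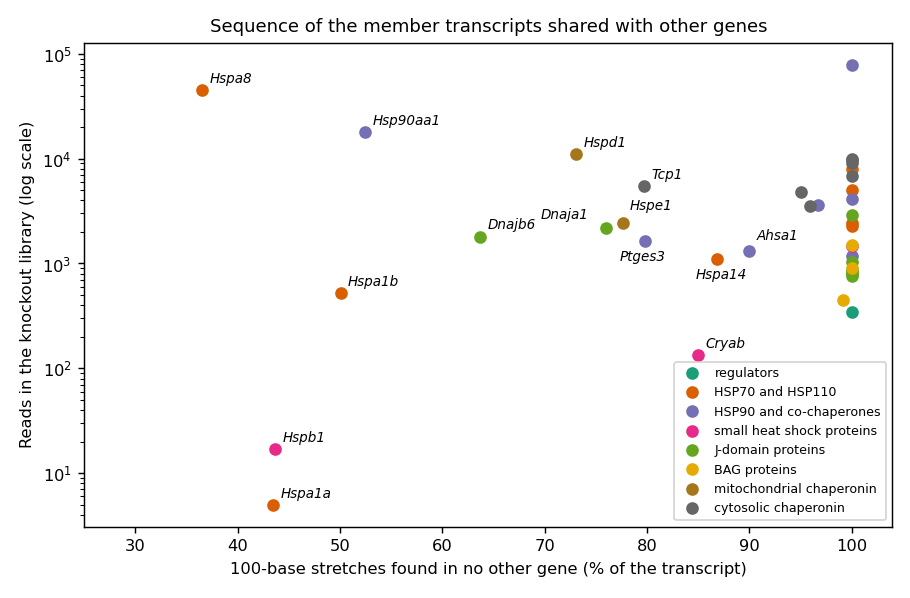
Reads of each member (log axis) against the percentage of its 100-base stretches found in no other annotated gene, coloured by class, with names for members under 90%. Members with shared sequence occur at both ends of the counts, from Hspa8 with 45110 reads to Hspa1a with 5.

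Other genes of protein folding were listed in 8 groups, with 111 genes in all. Among them 95 passed detection and 62 lay above the median of detected genes, with a median of 28.1 TPM over the 111. For these and the counts per group below, the shares over all 22046 protein-coding genes were 52.2% detected and 26.1% above that median. Among other HSP70 genes 6 of 7 were detected and 3 exceeded the median, led by the endoplasmic reticulum chaperones Hspa5 (BiP, 569 TPM) and Hyou1 (60.2), while Hspa12a had 6 reads. All 21 other HSP90 genes and co-chaperones passed detection, 17 of them above the median, with Nudc at 200.4 TPM and Cdc37, which brings kinases to HSP90, at 158. Of 7 genes listed as other small heat shock proteins 3 were detected and 1 exceeded the median, Hspb11 at 32.96 TPM. Its symbol alone does not make Hspb11 a protein of this class, and it was also listed among the stress-linked genes. Hspb6 followed at 21.9 TPM. Hspb3 and Hspb7 had 5 reads each, Hspb9 had 6, and Cryaa, the lens crystallin, 0.

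Of 36 other J-domain proteins 32 were detected and 16 exceeded the median. Dnajc8, a splicing-associated member, had 109 TPM and Gak, which uncoats clathrin vesicles, 97.2, while Dnajb7 had 8 reads, Dnajb13 had 1, and Dnajc6, the neuronal counterpart of Gak, and Dnajc12 had 0. All 9 further exchange factors and HSP70 modulators were detected, 5 of them above the median, with Bag6 at 188 TPM and Bag5 at 91.1. Of 13 genes linked to CCT or prefoldin, which passes actin and tubulin to CCT, 12 were detected and 10 exceeded the median; the prefoldin subunits Pfdn5 and Pfdn6 were highest at 161 and 119 TPM. Cct6b, the testis form of subunit zeta, had 7 reads against the 5784 of Cct6a. Of 7 heat shock factors and their regulators 1 was detected, Hsbp1; Hsbp1l1 had 3 reads and Hsf2bp 2. All 12 disaggregases and stress-linked genes passed detection, 10 of them above the median, with Sqstm1 (p62), an autophagy receptor, at 1143 TPM and Ubb, polyubiquitin, at 914.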

How the data were processed

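The authors deposited raw counts of reads per gene in whole numbers, beside each gene's position, length and biotype. The submitters' processing notes name CASAVA, HISAT2 2.0.5, featureCounts 1.5.0-p3 and build mm10. Which annotation was used, how strand was set and what was done with reads that fit several places is not given in the sources used here. The count column headed KO carries the title of the knockout sample. The 1 other per-sample column was not used, so the planned comparison with wild type was not made. Of 54532 gene IDs 54495 are in GENCODE vM21 (the same build), with identical position for 53585; the deposited length equalled the merged exon length for 53411 genes and 38 of the 40 members, and merged exons include introns retained in some transcripts.

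Levels were computed here as CPM and TPM, with exact Poisson 95% intervals (library total 15565990 reads). Ratios carry exact binomial intervals. Reads made by PCR without molecular identifiers are not independent, so all intervals cover counting error only. The alternative length is that of the GENCODE transcript with the longest coding part. Stretches of 100 and 50 bases were compared on both strands with all GENCODE vM21 transcripts of other genes. The computations were tested on simulated data. Members and lists were chosen with earlier results of these data known. All members are named; of the other lists, the 2 genes with the highest TPM and the genes under 10 reads, and of pseudogenes the 3 with the most reads; other names were chosen after their values were seen. Python 3.11.15, numpy 2.4.6, pandas 2.3.3 and scipy 1.17.1 were used.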

Additional observations from a re-analysis of the deposited data

Results flagged for a closer look

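Reads on processed pseudogenes that share sequence with members are a signal outside the member counts. Each count below is higher than 3 reads, a fixed limit set for a count of 0 and not taken from the exact intervals. Hspd1-ps3 on chromosome 11 (41498737 to 41500458) had 530 reads and shares 60.7% of its stretches of 50 bases with Hspd1. Ptges3-ps on chromosome 6 (85843980 to 85844459) had 410 reads and shares all of them (100%) with Ptges3. Gm12346 on chromosome 11 (77293444 to 77295898) had 263 reads and shares 75.4% with Hsp90aa1. The source of these reads was not tested.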

How the results depend on the processing

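No paired analysis was possible because the knockout library stands alone, and no replicate could be left out. The alternatives planned for the difference between libraries were not run, for the same reason. The number of members detected was 38 to 40 at minimums of 1 to 100 reads, that above the median 34 or 35, and that in the top 10% 17 without length correction and 20 or 21 otherwise. The gene length moved most values. TPM with coding transcripts was scaled anew over the library, so a value can move without a change in its own length. Bag3 and Hspa1b, whose length was the same either way, came to 0.694 times their TPM. The shift of the BAG median, which is that of Bag3, is this factor alone. With the coding transcript (for single members planned, for classes added after seeing the data), 34 of 39 members left their counting interval, 7 by over 1.5 times, at ratios from 0.694 to 2.56. Class medians were then 35.97 TPM in place of 15.04 for regulators, 79.9 in place of 55.5 for HSP70 and HSP110, 225 in place of 279 for HSP90 and co-chaperones, 47.2 in place of 68.1 for BAG proteins, 511 in place of 558 for the mitochondrial and 378 in place of 262 for the cytosolic chaperonin, with Cct6a kept at its deposited length (over the 7 others the median was the 461 TPM of Cct3). The mean in place of the median gave 343 TPM for HSP70 and HSP110, 956 for HSP90 and co-chaperones, 55.01 for small heat shock proteins (median 17.3), 63.2 for J-domain proteins (median 49), 103 for BAG proteins and 359 for the cytosolic chaperonin. The coefficient of variation of CCT subunits, 61.1%, was 43.2% with the coding transcript and, added after seeing the data, 64.3% over 7 subunits with the deposited length and 37% with the coding length. Other totals moved the CPM of 2 to 17 members out of their counting interval. A heat shock element was found in 5 members, and in 16 with 1 mismatch or, separately, with 2 units in place of 3 (48.5%, against 17% of all genes). Depth limits Hspa1a and Hspb1 most.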
